A study of Homo sapiens with 12 samples.

Results

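Retinol leaves the liver bound to retinol-binding protein 4 (RBP4), which travels in plasma in complex with transthyretin (TTR). TTR also carries thyroxine, as does thyroxine-binding globulin (SERPINA7). Inside cells, LRAT stores retinol as retinyl esters, RDH10 oxidises it to retinal, DHRS3 reduces retinal back to retinol, CRABP2 delivers retinoic acid to nuclear receptors such as RARB, and CYP26A1 breaks retinoic acid down. RARB, CYP26A1, DHRS3 and LRAT are themselves known to be induced by retinoic acid. The transcripts of these 9 genes were followed by RNA sequencing in PLC/PRF/5, a human hepatoma cell line. They were matched by symbol among the 57820 genes counted in all 12 libraries. RBP4 was chosen by its measured counts, seen to be higher after rescue, and TTR by its counts, seen to be lower after knockout, so those contrasts are described for these 2 genes without a test. The contrasts of these 2 genes that are tested reuse the KO libraries, so those tests are not independent of the choice.

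The KO_RES group was PLC/PRF/5 in which HKDC1, a hexokinase domain gene, had been knocked out and then restored. The KO group carried the knockout alone, and the control group was PLC/PRF/5 with HKDC1 intact. Each group had 4 libraries. KO_RES and KO came from 2 knockout lines with 2 libraries per line and group, named by line and number, so that KO 2_1 is line 2, number 1, and KO1 and KO2 are the lines. Neither clonality, culture of origin nor oxygen is stated in the labels, though hypoxia, stemness and beta-catenin appear in the series title. With no word on separate cultures, p-values here cover the spread among these libraries alone, and that spread could be technical.

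Gene counts totalled 36075411 to 60154638 for KO_RES libraries, 42609910 to 68040103 for KO libraries and 57333288 to 71853616 for control libraries. HKDC1 itself was at 1240, 1550, 507 and 626 CPM (counts scaled to the total of each library) in KO_RES 1_1, 1_2, 2_1 and 2_2, against 153, 147, 91.2 and 49.3 CPM in the matching KO libraries. Controls 1 to 4 held 157, 154, 183 and 124 CPM, so the transcript was not depleted in KO1, and the labels did not give the edited site that would show whether gene counts can test the knockout. For 4 libraries (KO_RES 1_1 and 2_1, KO 1_2 and 2_2) title and genotype field named different groups. The titles were followed, and HKDC1 was higher in the library titled KO_RES in 4 of 4 pairs of the same line and number. Controls 1 and 2 stood apart from controls 3 and 4, with albumin (ALB) at 908 and 822 CPM against 23.0 and 28.2 CPM, so the results for the 9 genes against control are also given against either pair. Hepatocyte markers summed to 4340 to 34800 CPM in KO_RES, 5280 to 28700 CPM in KO and 12200 to 22700 CPM in control libraries, a sum led by APOB. Without APOB it was 4220 to 7110 CPM in KO_RES, 5260 to 7100 CPM in KO and 6600 to 16300 CPM in control libraries. RELN led the stellate cell markers, at 977 to 1240 CPM in KO_RES and 654 to 1080 CPM in KO, all below the 1270 to 1970 CPM of control libraries. The other stellate cell markers summed to 4.69 to 12.7 CPM in KO_RES, 5.61 to 13 CPM in KO and 7.3 to 12.9 CPM in control libraries. Cholangiocyte markers summed to 192 to 532 CPM in KO_RES, 265 to 374 CPM in KO and 17.2 to 66.3 CPM in control libraries, with CFTR highest in line 1 and KRT19 highest in line 2 and in controls 3 and 4. The part of these marker differences in the results below was not tested. In such bulk samples, fewer cells of a type and less RNA per cell cannot be told apart.

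RBP4 (ENSG00000138207.8, chromosome 10) differed most by line. It was at 147, 213, 11 and 18.3 CPM in KO_RES 1_1, 1_2, 2_1 and 2_2. The matching KO libraries held 85.7, 95.2, 5.52 and 6.70 CPM, and controls 1 to 4 held 167, 171, 12.6 and 19.6 CPM. Line 1 and controls 1 and 2 were thus high, and line 2 and controls 3 and 4 were low, so the groups as a whole overlapped. Means were 97.3 ± 99.2 CPM in KO_RES, 48.3 ± 48.9 CPM in KO and 92.7 ± 88.5 CPM in control (SD, n = 4 each).

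**Figure D1:**
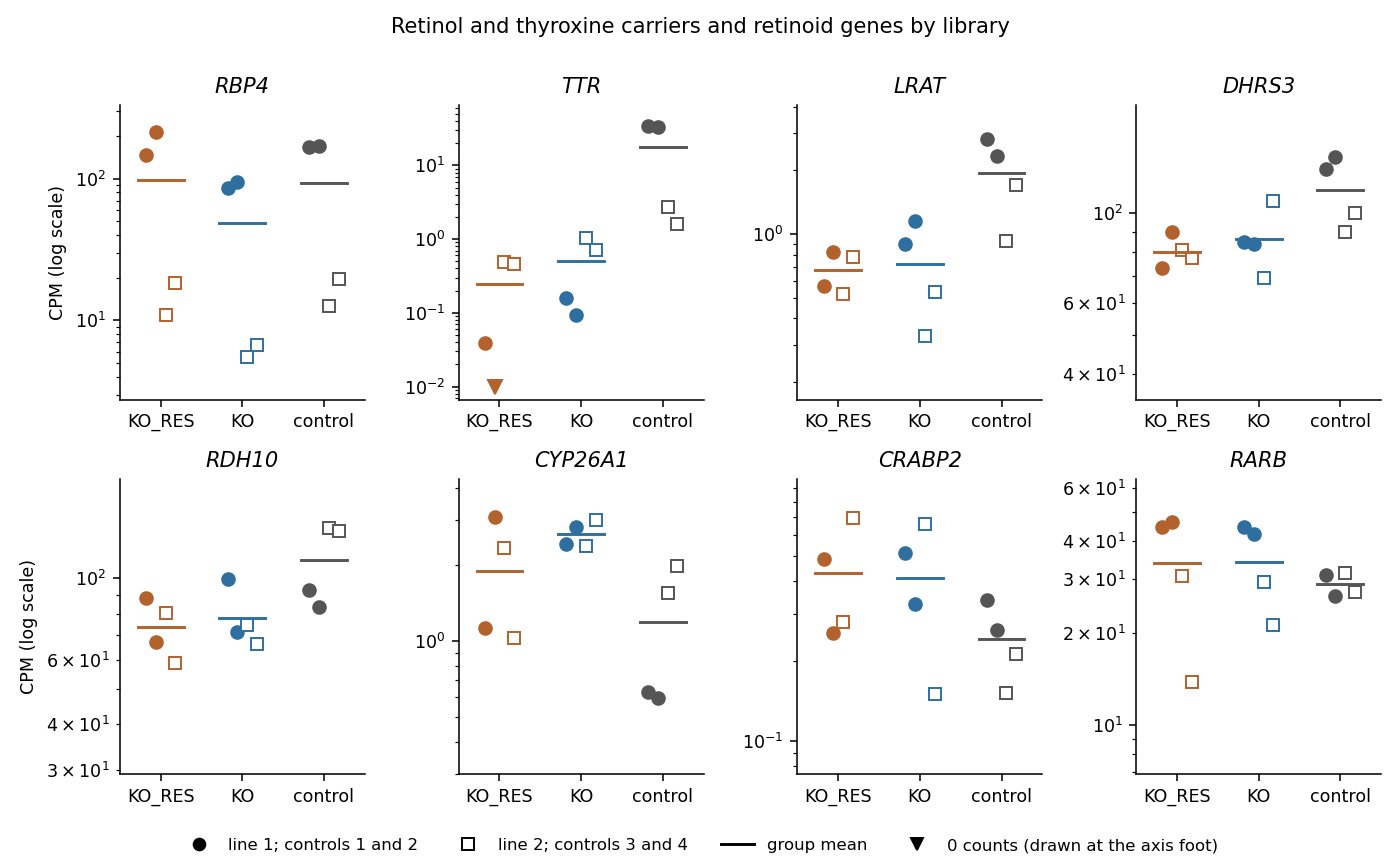
CPM on a log axis for 8 of the 9 genes in each library, with filled circles for line 1 and for controls 1 and 2, open squares for line 2 and for controls 3 and 4, and a bar at the group mean; the shared symbols do not pair controls with lines. RBP4 separates into high and low libraries within every group, and TTR in all KO_RES and KO libraries sits below the lowest control, at 1.60 CPM.

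In KO2, RBP4 was lower than in KO1 by a log2 fold change of -3.88 (SE 1.12, 95% interval -6.35 to -1.41, adjusted p = 0.0475, edgeR), the KO1 mean being 14.8 times the KO2 mean. That call was lost without any 1 of the 4 KO libraries, with log2 fold changes of -4.03 to -3.74 and adjusted p of 0.132 to 0.228. Fitted without the controls it was -3.89 (SE 0.284, adjusted p = 1.26e-04), where 14.2% of all genes were called. The difference was of similar size in each of these fits. Among the 8 genes tested between the lines RBP4 was the single one called (1 of 8, also by DESeq2), where 12% of all 20559 genes were called, 5.72% of them lower in KO2. APOB, the apolipoprotein B gene and a hepatocyte marker, was also far lower in line 2, at 20.2 and 47.8 CPM in KO2 and at 10400 and 21600 CPM in KO1. Of the other hepatocyte markers, HNF4A averaged 207 CPM in KO2 and 143 CPM in KO1, and AFP 17.7 CPM in KO2 and 7.72 CPM in KO1. The rest averaged lower in KO2. SERPINA1 was at 692 CPM in KO2 against 816 CPM in KO1, FGB at 136 against 470 and TF at 816 against 1250. ALB was at 18.3 CPM in KO2 against 26.5 CPM in KO1, KRT18 at 1640 against 2100 and KRT8 at 1850 against 2090. The part of such a line difference in RBP4 was not tested.

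Against control, RBP4 depended on which controls were used. KO2 against the 4 controls had a log2 fold change of -3.92 (SE 1.07, 95% interval -6.28 to -1.56, adjusted p = 0.0434), KO2 lying below every control. It was -4.81 (adjusted p = 5.84e-06) against controls 1 and 2 and -1.40 (adjusted p = 0.0147) against controls 3 and 4. The call against all 4 was lost without control 1, control 2, KO 2_1 or KO 2_2 (adjusted p = 0.0724, 0.0743, 0.279 and 0.199). KO1 had -0.04 (SE 0.855, adjusted p = 0.982) against the 4 controls, but -0.93 (adjusted p = 0.0187) against controls 1 and 2 and 2.5 (adjusted p = 5.47e-04) against controls 3 and 4, so its direction turned with the controls. For both lines together the change was -0.94 (SE 1.19, 95% interval -3.53 to 1.65, adjusted p = 0.697), and 1.59 against controls 3 and 4 (adjusted p = 0.677).

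After rescue, RBP4 was higher than in the KO library of the same line and number in all 4 pairs, by 1.71 and 2.24 times in line 1 and by 1.99 and 2.72 times in line 2. The fitted log2 fold change was 1.01 over both lines, 0.99 in line 1 and 1.25 in line 2; it is the contrast by which the gene was picked. The rescue effect differed between lines by 0.26 (SE 1.41, 95% interval -2.86 to 3.38), with an adjusted p of 1. Because the genotype field divides these libraries by number, the number 2 libraries were also set against number 1 of the same line and group. Those ratios were 1.11 in KO1, 1.45 in KO1_RES, 1.21 in KO2 and 1.66 in KO2_RES. With the libraries grouped by the genotype field the log2 fold change was 0.42. Rescued line 1 averaged 180 CPM and rescued line 2 14.6 CPM, and KO1 averaged 90.5 CPM and KO2 6.11 CPM, against 169 CPM in controls 1 and 2 and 16.1 CPM in controls 3 and 4. Secreted plasma proteins of hepatocytes had 0 of 20 called by edgeR in KO_RES against KO, with 1 at an unadjusted p under 0.05, 12 above 0 and a median of 0.10. Some were higher in the same pairs. ALB, the main plasma carrier, was 1.21 to 2.54 times its KO level and AFP, the fetal albumin relative, 1.73 to 10.2 times, each in 4 of 4 pairs, while the protease inhibitor SERPINA1 was at 0.902 to 1.4 times, higher in 2 of 4. The part of these differences in the RBP4 ratios was not tested.

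**Figure D2:**
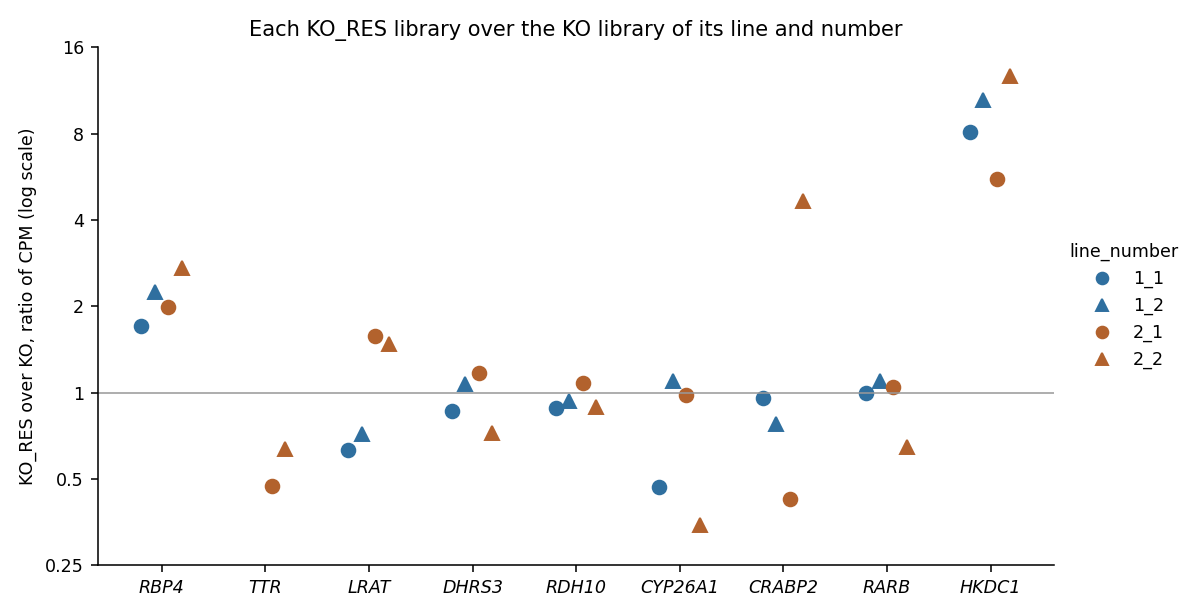
Ratio of CPM in each KO_RES library to the KO library of its line and number, on a log axis, with blue for line 1, orange for line 2, circles for number 1 and triangles for number 2. RBP4 lies at 1.71 to 2.72 in all 4 pairs and HKDC1 at 5.56 to 12.7; TTR is shown for line 2 alone, since line 1 was at or under 3 counts after rescue.

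TTR (ENSG00000118271.5, chromosome 18) was the other carrier that stood out. It had 2, 0, 26 and 31 counts in KO_RES 1_1, 1_2, 2_1 and 2_2 and 10, 4, 56 and 53 counts in the matching KO libraries, against 1905, 2259, 162 and 90 counts in controls 1 to 4. As levels these were 0.0391, 0, 0.486 and 0.458 CPM in KO_RES, 0.160, 0.0937, 1.03 and 0.721 CPM in KO, and 34.1, 33.0, 2.74 and 1.60 CPM in control. All 8 KO_RES and KO libraries lay below all 4 controls. The means were 0.246 ± 0.262 CPM in KO_RES and 0.5 ± 0.450 CPM in KO, against 17.9 ± 18.1 CPM in control (SD, n = 4 each).

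The log2 fold change of TTR in KO against control was -5.14 over both lines, -7.07 in KO1 and -4.36 in KO2, given as a description. Against controls 3 and 4, which had little TTR of their own, it was -4.02 in KO1 and -1.32 in KO2, and against controls 1 and 2 it was -8.00 and -5.29. Every one of these values was below 0, and each was larger against controls 1 and 2. After rescue, TTR was lower than in the KO library of the same line and number in 4 of 4 pairs. In line 2 the KO_RES library held 0.473 and 0.636 times the TTR of its KO library, and in line 1 it was at or under the floor of 3 counts (0.0408 to 0.0849 CPM by library, covering counting error only), so no fold is given there. The rescue contrast over both lines was -0.96 (SE 1.18, 95% interval -3.55 to 1.62) with an adjusted p of 1, and in the paired fit, blocked by line and number, -1.12 (adjusted p = 0.279), where 0.0437% of all genes were called.

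The order of the lines was opposite for the 2 carriers. TTR was higher in KO2 than in KO1, by 2.72 on the log2 scale (SE 1.5, adjusted p = 0.294), which was called when the controls were left out (2.71, SE 0.552, adjusted p = 0.0142). RBP4 was lower in KO2 than in KO1. Per kilobase of exon, RBP4 was at 887 and 1680 times the TTR level in KO1 and at 8.88 and 15.4 times in KO2, against 8.1, 8.58, 7.6 and 20.3 times in controls 1 to 4. In rescued line 2 the ratio was 37.4 and 65.8. The ratios of KO2 thus lay within the range of the controls, and those of KO1 far above it. The KO1 ratios divide by 10 and 4 TTR counts, where the floor is 3, so their size is uncertain. Both genes were chosen by their counts in these libraries, so the ratios, also those after rescue, are a description only. Both genes were higher in controls 1 and 2 than in controls 3 and 4, by 10.5 times for RBP4 and 15.5 times for TTR.

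**Figure D3:**
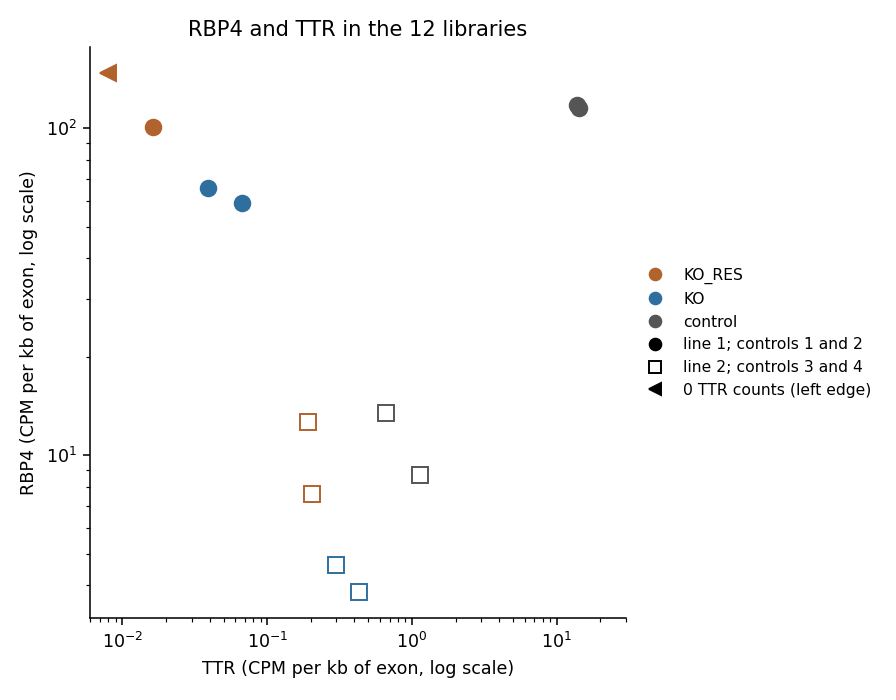
RBP4 against TTR in the 12 libraries, both as CPM per kilobase of exon on log axes, with orange for KO_RES, blue for KO, grey for control, circles for line 1 and controls 1 and 2, and squares for line 2 and controls 3 and 4; the triangle is a library with 0 TTR counts, drawn at the left edge. Controls 1 and 2 lie at the upper right, line 1 at the upper left with RBP4 high and TTR near 0, and line 2 at the lower left.

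SERPINA7 (ENSG00000123561.10, chromosome X), the third carrier, had 0 counts in all 12 libraries, which allows up to 3 counts in each. It was not testable, so 8 of the 9 genes passed the filter on low counts.

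Patterns most like RBP4 and TTR were found over the 12 libraries as the root mean square difference of log2(CPM + 0.5), each gene centred on its own mean, among 12287 genes. Nearest to RBP4 were ORM2 (0.565), SLC30A10 (0.67), ACSS3 (0.695), SERPINF1 (0.714) and ORM1 (0.743), where RBP4's own spread was 1.88. ORM1 and ORM2, which encode the acute-phase protein orosomucoid, are near-identical copies, so their counts are uncertain. Nearest to TTR were APOA1 (0.524), VCAM1 (0.548), GC (0.568), VSNL1 (0.59) and MASP1 (0.648), where TTR's own spread was 2.04. APOA1 is the main protein of high-density lipoprotein, and GC carries vitamin D in plasma. ALB ranked 43 by likeness to TTR and 289 by likeness to RBP4, while TTR ranked 11872 for RBP4 at a difference of 2.48. Such a difference grows with the spread of both genes, so a gene that does not vary lies nearer than one that varies widely, and that rank is no measure of unlikeness. These distances describe 12 libraries that share lines and controls.

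Among the enzymes, LRAT (ENSG00000121207.7, chromosome 4), which makes retinyl esters, was lower after knockout of line 2. It was at 0.566, 0.821, 0.524 and 0.784 CPM in KO_RES 1_1, 1_2, 2_1 and 2_2. The matching KO libraries held 0.894, 1.15, 0.330 and 0.530 CPM, and controls 1 to 4 held 2.83, 2.34, 0.929 and 1.70 CPM. Every KO_RES library lay below every control, and of the KO libraries KO 1_2 was the one above control 3. KO2 fell against control by 2.16 on the log2 scale (SE 0.470, 95% interval -3.20 to -1.12, adjusted p = 0.0162). It was also called against controls 1 and 2 (-2.58, adjusted p = 0.00126) and against controls 3 and 4 (-1.60, adjusted p = 0.0429), and lost the call without KO 2_1 (-1.87, adjusted p = 0.177) or KO 2_2 (-2.55, adjusted p = 0.0760). With RBP4, LRAT made up the 2 of 7 tested genes called in KO2 against control, both lower, where 10% of all genes were called and 5.24% called lower.

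Over both lines LRAT had -1.43 in KO against control (SE 0.420, 95% interval -2.35 to -0.51, adjusted p = 0.0674). It was called against controls 1 and 2 (-1.86, adjusted p = 0.0294) and not against controls 3 and 4 (-0.86, adjusted p = 0.443), with DESeq2 (-1.44, adjusted p = 0.00995) and not in KO1 (-0.94, SE 0.435, adjusted p = 0.164). KO_RES against control gave -1.53 (adjusted p = 0.0584, where 5.47% of all genes were called), with -1.96 against controls 1 and 2, which was called (adjusted p = 0.0244, where 7.09% were), and -0.96 against controls 3 and 4 (adjusted p = 0.4, where 1.91% were). LRAT moved in opposite directions on rescue in the 2 lines: KO_RES held 0.633 and 0.716 times the KO level in line 1 and 1.58 and 1.48 times in line 2. The difference between those effects was 1.15 (SE 0.716, 95% interval -0.43 to 2.74), with an adjusted p of 1.

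RDH10 (ENSG00000121039.5, chromosome 8), which makes retinal, was at 88.3, 66.8, 80.2 and 58.7 CPM in KO_RES and at 99.6, 71.5, 74.3 and 66.1 CPM in KO, against 92.7, 83.1, 137 and 134 CPM in control. Here controls 3 and 4 were the high pair, unlike for RBP4, TTR and LRAT. KO2 lay below every control, at -0.67 on the log2 scale (SE 0.248, adjusted p = 0.122), called against controls 3 and 4 (-0.95, adjusted p = 0.0236). Over both lines RDH10 had -0.52 (SE 0.197, adjusted p = 0.146), and KO_RES had -0.60 (SE 0.197, adjusted p = 0.103). Against controls 3 and 4 these were -0.80 (adjusted p = 0.0827) in KO and -0.88 (adjusted p = 0.0633) in KO_RES, and against controls 1 and 2 -0.20 (adjusted p = 0.627) in KO and -0.28 (adjusted p = 0.485) in KO_RES.

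DHRS3 (ENSG00000162496.4, chromosome 1), the retinal reductase, was at 73.3, 89.6, 81.0 and 77.4 CPM in KO_RES and at 84.9, 83.8, 69.1 and 107 CPM in KO, against 129, 138, 90.0 and 100 CPM in control. Every KO_RES library was below the lowest control, while KO 2_2 reached into the control range. KO against control gave -0.41 (SE 0.159, adjusted p = 0.159), called against controls 1 and 2 (-0.65, adjusted p = 0.0402) and not against controls 3 and 4 (-0.14, adjusted p = 0.759). KO_RES against control gave -0.51 (SE 0.159, adjusted p = 0.0899), called against controls 1 and 2 (-0.75, adjusted p = 0.0227) and not against controls 3 and 4 (-0.24, adjusted p = 0.582).

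CYP26A1 (ENSG00000095596.7, chromosome 10) and RARB (ENSG00000077092.14, chromosome 3) are the best known direct targets of retinoic acid, through paired half-sites in their promoters. The 120 bases before the gene start are shown for both, since these 2 genes hold the motif, and for RBP4, the carrier that was called between the knockout lines. They were read 5′ to 3′ on the gene's strand from RefSeq on GRCh38.p14, at chr3:25428143-25428262 on the + strand, chr10:93073773-93073892 on the + strand and chr10:93601236-93601355 on the - strand. Capitals mark the direct repeat (GTTCA, any 6 bases, GTTCA) in RARB, its reverse complement in CYP26A1, and the letters TATAAA in RBP4:
RARB: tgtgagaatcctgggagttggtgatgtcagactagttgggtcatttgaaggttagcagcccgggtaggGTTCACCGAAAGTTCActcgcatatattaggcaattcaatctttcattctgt
CYP26A1: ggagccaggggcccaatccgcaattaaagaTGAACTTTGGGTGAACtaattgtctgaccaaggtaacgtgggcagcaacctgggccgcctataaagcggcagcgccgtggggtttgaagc
RBP4: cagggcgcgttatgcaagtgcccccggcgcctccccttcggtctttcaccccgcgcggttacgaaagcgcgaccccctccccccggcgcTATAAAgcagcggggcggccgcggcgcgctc

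Searched on both strands in windows from 250 bases before to 50 bases after each gene start, the direct repeat was found in 20 of 35116 RefSeq windows (0.057%) and in 2 of the 15 windows of 7 of the genes, those printed. TATAAA was found in 4049 windows (11.5%) and in 5 of the 15, from CYP26A1, RBP4 and SERPINA7. The CYP26A1 sequence printed above also holds TATAAA, left in lower case. In RBP4 it begins 31 bases before the start. The direct repeat was searched because it is known from the RARB and CYP26A1 promoters, so its share among these genes is no test of enrichment. A match is a description of letters and shows neither binding nor a cause.

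CYP26A1 was at 1.13, 3.09, 2.32 and 1.03 CPM in KO_RES 1_1, 1_2, 2_1 and 2_2, and at 2.41, 2.81, 2.37 and 2.99 CPM in KO. Controls 1 to 4 held 0.627, 0.599, 1.55 and 1.97 CPM, so every KO library was above every control, while KO_RES overlapped both. KO against control gave a log2 fold change of 1.16 (SE 0.448, 95% interval 0.18 to 2.13, adjusted p = 0.154), with 1.13 in KO1 (adjusted p = 0.178) and 1.18 in KO2 (adjusted p = 0.211). It was called against controls 1 and 2 (2.08, SE 0.480, adjusted p = 0.0285) and not against controls 3 and 4 (0.59, adjusted p = 0.603). Rescue gave -0.49 (SE 0.442) with an adjusted p of 1, lower in 3 of 4 pairs at 0.346 to 1.10 times the KO level.

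RARB, the retinoic acid receptor, was higher in line 1 than in line 2. RARB has 4 RefSeq windows, and gene counts do not tell its starts apart. It was at 44.5, 46.4, 30.7 and 13.8 CPM in KO_RES and at 44.5, 42.1, 29.3 and 21.3 CPM in KO, against 31.0, 26.4, 31.5 and 27.2 CPM in control. Both KO1 libraries lay above every control (0.58, SE 0.252, adjusted p = 0.142), while KO2 overlapped them (-0.20, SE 0.259, adjusted p = 0.696). KO2 against KO1 gave -0.77 (SE 0.298, adjusted p = 0.127). It was called in 1 of 9 alternative fits, that without a filter on low counts (-0.78, adjusted p = 0.00273). Without the controls it was not called (-0.79, adjusted p = 0.166). Over both lines RARB had 0.24 (SE 0.330, adjusted p = 0.724) in KO against control, with 0.24 against controls 1 and 2 (adjusted p = 0.812) and 0.22 against controls 3 and 4 (adjusted p = 0.873).

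CRABP2 (ENSG00000143320.4, chromosome 1), the carrier of retinoic acid into the nucleus, was low throughout. It was at 0.488, 0.255, 0.280 and 0.695 CPM in KO_RES and at 0.511, 0.328, 0.661 and 0.150 CPM in KO, against 0.341, 0.263, 0.152 and 0.213 CPM in control. The groups overlapped, with 0.76 in KO against control (SE 0.480, 95% interval -0.29 to 1.81, adjusted p = 0.39) and 0.08 in KO_RES against KO (SE 0.469, 95% interval -0.94 to 1.10). KO_RES 2_2 held 4.65 times the CRABP2 of KO 2_2, and the other pairs 0.425 to 0.955 times. KO had 0.42 against controls 1 and 2 (adjusted p = 0.741) and 1.16 against controls 3 and 4 (adjusted p = 0.445).

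In KO against control 0 of the 7 genes tested were called by edgeR, where 6.28% of 19200 genes were, with 4 of 7 at an unadjusted p under 0.05 (LRAT, RDH10, CYP26A1 and DHRS3) and 1 called by DESeq2. In KO1 it was 0 of 7, where 18.1% of all genes were called, with 1 at an unadjusted p under 0.05 and 0 by DESeq2. In KO_RES against KO 0 of the 7 genes other than RBP4 were called by edgeR or DESeq2, where 0% of all genes were, with 0 at an unadjusted p under 0.05. Against controls 1 and 2, KO had 3 of 7 called (7.32% of all genes), KO1 4 of 7 (24.3%) and KO2 3 of 7 (19.0%). Against controls 3 and 4, KO had 0 of 7 (1.67%), with 1 at an unadjusted p under 0.05, KO1 1 of 7 (17.6%) and KO2 3 of 7 (10.6%). Only LRAT and RBP4 in KO2 were called against all controls and against either pair.

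**Figure D4:**
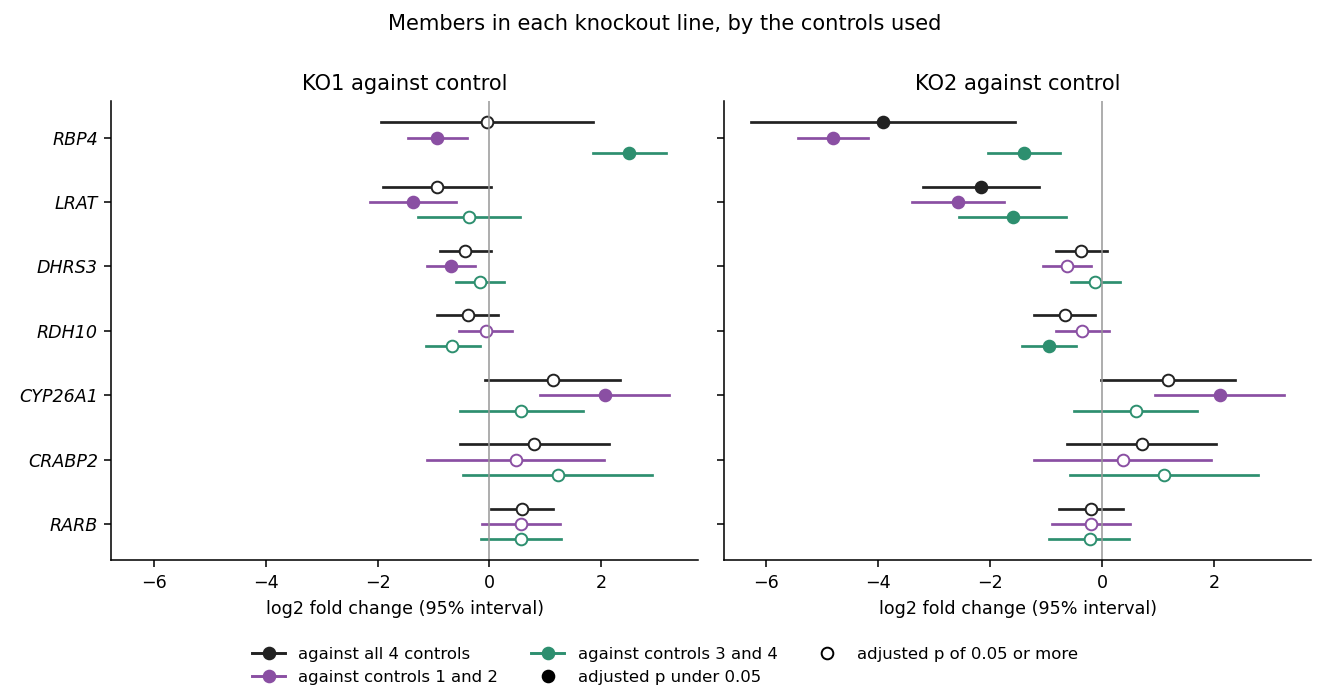
Log2 fold change with its 95% interval for 7 genes in KO1 (left) and KO2 (right), against all 4 controls (black), controls 1 and 2 (purple) and controls 3 and 4 (green); filled points have an adjusted p under 0.05, and 0 is no difference. RBP4 in KO1 is at -0.93 against controls 1 and 2 and at 2.5 against controls 3 and 4, and LRAT and RBP4 in KO2 stay below 0 in all 3 settings.

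Compared per length of exon and averaged over the 12 libraries, RBP4 was the highest of the 9 at 54.8 CPM per kilobase, followed by DHRS3 at 30.8, RDH10 at 16.5 and RARB at 8.76. TTR was at 2.59, CYP26A1 at 0.642, CRABP2 at 0.328 and LRAT at 0.148. The ranges of RBP4 (3.81 to 147), DHRS3 (22.8 to 45.3) and RDH10 (11 to 25.7) overlapped, and so did those of every other pair of neighbours in that order down to LRAT. SERPINA7, at 0, closed the order. In line 2 and in controls 3 and 4 DHRS3 was above RBP4, and in KO2 RBP4, at 3.81 and 4.63 CPM per kilobase, was also below RDH10 and RARB.

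The other genes of the pathway came from lists of retinoid carriers, ester storage, retinol and retinal interconversion, retinoic acid synthesis and breakdown, receptors, and genes known to rise with retinoic acid. Of the 76 listed genes 62 were tested in KO against control, and 3 rose and 8 fell (17.7%, median log2 fold change -0.11, against 6.28% and 0.01 over all genes). Of 64 tested, 8 rose and 12 fell in KO1 (31.2% where 18.1% of all genes were called, median -0.12 against -0.02). In KO2, 3 rose and 8 fell of 64 (17.2% where 10% of all genes were called, median -0.22 against 0.00). Against controls 3 and 4 the 11 calls of KO against control dropped to 2 (3.23% where 1.67% of all genes were called), and against controls 1 and 2 they came to 16 (25% where 7.32% were). DESeq2 called 17 of the retinoid genes in KO against control, 25 in KO1 and 19 in KO2. Its shares over all genes are not given here. In KO against control it called more genes over all than edgeR, so these counts cannot be set against the edgeR shares. Of the receptors and cofactors 11 were tested and 0 called by edgeR in KO against control, with 4 at an unadjusted p under 0.05. In KO1 3 of 11 were called (27.3%, where 18.1% of all genes were), NRIP1 and RARA higher and NCOA2 lower. In the rescue, KO_RES against KO had 0 of 62 called in edgeR, with 4 at an unadjusted p under 0.05, and 0 in DESeq2.

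Of the genes that make retinoic acid, ALDH1A3 was called in opposite directions in the 2 lines against all 4 controls. Its control level differed by pair, averaging 2.85 CPM over controls 1 and 2 but 0.821 CPM over controls 3 and 4. KO1 averaged 0.426 CPM and KO2 10.6 CPM, so the KO1 fall was larger against controls 1 and 2. Of the retinoic acid synthesis and breakdown genes, 1 rose and 2 fell of 7 tested in KO1 (42.9%, where 18.1% of all genes were called). The breakdown enzyme CYP26B1 was the higher, and ALDH1A1 and ALDH1A3, which make retinoic acid, the lower. Of 7 tested in KO2, 2 rose (CYP26B1 and ALDH1A3) and 0 fell (28.6%, where 10% of all genes were called). ALDH1A3 had 2.53 in KO2 against control (adjusted p = 0.0125, lost without KO 2_2 at 0.119) and -2.12 in KO1 (adjusted p = 0.0447, lost in 4 of 6 fits without 1 library). ALDH1A1, which makes retinoic acid from retinal, was at 1450, 1320, 2130 and 1780 CPM in KO 1_1, 1_2, 2_1 and 2_2 against 3120, 3010, 2930 and 2480 CPM in control, all KO libraries below all controls (-0.79, SE 0.189, adjusted p = 0.0328). In KO1 the fall was 1.06 on the log2 scale (-1.06, adjusted p = 0.0031), kept without each library in turn, and in KO2 ALDH1A1 had -0.56 (adjusted p = 0.0733). The alcohol dehydrogenase ADH1C was at 0.415, 0.468, 2.07 and 1.94 CPM in KO against 12.6, 9.70, 13.7 and 8.70 CPM in control, with -4.66 in KO1 (adjusted p = 8.47e-05) and -2.48 in KO2 (adjusted p = 0.00218). Both line calls for ADH1C held against either control pair and without each library in turn. ADH1C has close relatives in ADH1A and ADH1B, between which reads may be split. RDH13, a retinol dehydrogenase family member, rose by 0.64 (SE 0.155, adjusted p = 0.0337), with 13.6 to 20.1 CPM in KO against 11.1 to 11.9 CPM in control. Over both lines together ALDH1A1 lost its call without 6 of the 8 libraries in turn, ADH1C without control 1 (adjusted p = 0.0511), KO 1_1 (0.0538) or KO 1_2 (0.0597), and RDH13 without 7 of 8.

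CYP26B1, the relative of CYP26A1 that also breaks down retinoic acid, rose most among the retinoid genes called in KO against control. It was at 7.91, 6.51, 1.76 and 2.34 CPM in KO_RES and at 12.6, 12.1, 2.66 and 2.98 CPM in KO, against 0.179, 0.146, 0.524 and 1.03 CPM in control, and all KO and KO_RES libraries were above all controls. KO against control gave 4.01 (SE 0.819, adjusted p = 0.0165), KO1 4.72 (adjusted p = 4.9e-04) and KO2 2.59 (adjusted p = 0.0156). Against controls 3 and 4 these were 3.28 (adjusted p = 0.125), 3.99 (adjusted p = 6.32e-05) and 1.86 (adjusted p = 0.00548). The CYP26B1 call over both lines was lost without control 1 (adjusted p = 0.0534) or control 2 (0.0522), and that in KO2 without KO 2_1 (0.0796) or KO 2_2 (0.091). In each of the 4 pairs KO_RES had less CYP26B1 than KO, at 0.54 to 0.785 times, which the pair block gave as -0.63 (SE 0.131, adjusted p = 0.146).

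SCARB1 and DGAT1, genes of lipid handling, fell in both lines. SCARB1 had -0.92 in KO1 (adjusted p = 0.0232) and -1.08 in KO2 (adjusted p = 0.0184), and DGAT1 had -0.85 in KO1 (adjusted p = 0.00312) and -0.72 in KO2 (adjusted p = 0.0109). SCARB1, the scavenger receptor that takes up carotenoids and lipoprotein cholesterol, was at 137, 152, 123 and 136 CPM in KO against 329, 352, 190 and 224 CPM in control (-1.0, SE 0.185, adjusted p = 0.0102). DGAT1, which esterifies diacylglycerol and retinol, was at 15.0, 18, 17.1 and 18.8 CPM in KO against 29.2, 34.2, 24.8 and 30.2 CPM in control (-0.78, SE 0.129, adjusted p = 0.00595). Over both lines together both kept the call without each single library, while the line calls were lost in 2 of 6 such fits in KO1 and 2 of 6 in KO2 for SCARB1, and in 1 of 6 in KO1 and 2 of 6 in KO2 for DGAT1. Over both lines together they had adjusted p of 0.0704 (SCARB1, -0.59) and 0.0585 (DGAT1, -0.68) against controls 3 and 4.

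**Figure D5:**
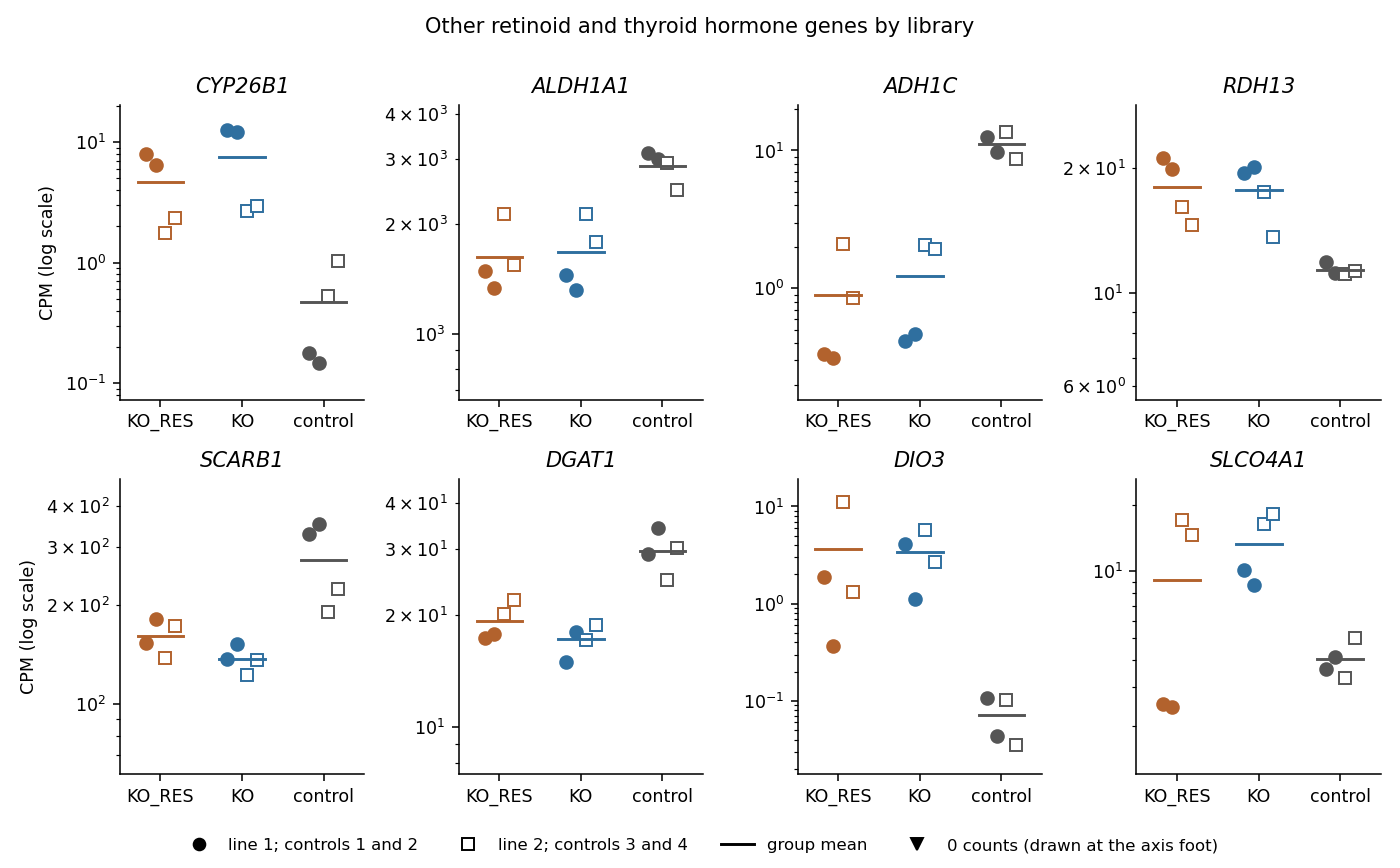
CPM on a log axis for 8 other retinoid and thyroid hormone genes in each library, with the same symbols as for the 9 genes: filled circles for line 1 and controls 1 and 2, open squares for line 2 and controls 3 and 4, and a bar at the group mean. CYP26B1 and DIO3 lie higher in every KO_RES and KO library than in any control, and ALDH1A1, ADH1C, SCARB1 and DGAT1 lower.

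Between the lines, 3 of 64 retinoid genes were higher and 5 lower in KO2 than in KO1, a share of 12.5% that lies at the 12% over all genes. ALDH1A3, another enzyme that makes retinoic acid, was at 7.65 and 13.6 CPM in KO2 and at 0.383 and 0.468 CPM in KO1 (4.65, SE 0.744, adjusted p = 0.00308). AKR1C3, an aldo-keto reductase that can reduce retinal, was at 20.6 and 30.3 CPM in KO2 and at 114 and 167 CPM in KO1 (-2.46, SE 0.351, adjusted p = 0.00162). Both were called without each KO library in turn.

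Thyroid hormone genes other than TTR and SERPINA7 had 1 of 24 tested higher and 1 lower in KO against control (8.33%, median 0.07 against 0.01). The higher was DIO3, the deiodinase that inactivates thyroid hormone, at 4.15, 1.12, 5.73 and 2.69 CPM in KO against 0.108, 0.0438, 0.101 and 0.0355 CPM in control (5.54, SE 1.05, adjusted p = 0.0117), where the controls were near the floor. KO_RES held 1.86, 0.368, 11.1 and 1.33 CPM of DIO3, again above every control. The lower was ALB (-4.32, adjusted p = 0.0353), which also carries thyroxine and had -0.19 (adjusted p = 0.881) against controls 3 and 4. DIO3 against controls 3 and 4 was 5.59 (adjusted p = 0.112) and against controls 1 and 2 5.47 (adjusted p = 0.0631), and it kept its call without each single library. In the lines, 5 rose and 2 fell of 24 in KO1 (29.2% where 18.1% of all genes were called) and 2 rose in KO2 (8.33%, where 10% were). DESeq2 called 3 of these genes in KO against control, 9 in KO1 and 5 in KO2, counts that cannot be set against the edgeR shares.

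Among genes known to rise with retinoic acid, 3 rose and 1 fell of 16 tested in KO1 (25% where 18.1% of all genes were called), and 1 rose and 1 fell of 16 in KO2 (12.5% where 10% were). In KO1, BHLHE40, a transcriptional repressor, rose (1.31, adjusted p = 0.00247), while PDK4, the kinase that shuts off pyruvate dehydrogenase, fell (-4.12, adjusted p = 0.00331). PDK4 was at 19.9, 13.3, 73.9 and 88.2 CPM in KO against 112, 104, 454 and 484 CPM in control, all KO libraries below all controls. RDH12, a retinal reductase, rose in KO1 (2.15, adjusted p = 9.41e-04), as did AKR1B1, an aldose reductase (2.25, adjusted p = 0.00423). These 4 calls in KO1 held without each library in turn. The thyroid hormone receptor THRB was at 59.9, 69.4, 40.7 and 38.5 CPM in KO against 38.5, 36, 23.7 and 28.6 CPM in control, and rose in KO1 (1.03, adjusted p = 0.00361), a call lost without KO 1_2 (adjusted p = 0.0527). Secreted plasma proteins of hepatocytes had 0 of 20 higher and 5 lower in KO against control (25% where 6.28% of all genes were called), with a median of -1.55, FGB, APOA1, GC and ALB among the lower. Against controls 3 and 4 there were 1 higher and 0 lower, with a median of 0.14, and the calls of FGB, APOA1, GC and ALB were each lost in 6 of the 8 fits without 1 library.

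SLCO4A1, an organic anion transporter that carries thyroid hormone, rose in both lines. It was at 10.1, 8.66, 16.4 and 18.2 CPM in KO against 3.64, 4.12, 3.31 and 5.00 CPM in control, with 1.22 in KO1 (adjusted p = 0.00135) and 2.11 in KO2 (adjusted p = 9.12e-05), called against either control pair and without each library in turn. Over both lines together it had 1.73 (SE 0.581, adjusted p = 0.104). After rescue it was at 2.52, 2.44, 17.1 and 14.6 CPM. SLCO4A1 in KO1_RES fell by 1.92 against KO1 on the log2 scale (SE 0.222, adjusted p = 0.0175), and in KO2_RES it had -0.13 against KO2 (SE 0.209) with an adjusted p of 1, where 0.00486% of all genes were called. In line 1 SLCO4A1 was 1 of the 40 genes called for rescue in line 1 (0.195% of all genes), and its call was lost in 3 of the 4 fits that left out a line 1 library (adjusted p = 0.121 to 0.268). LRP2, the endocytic receptor for RBP4 in kidney, was the retinoid gene called there, at 216 and 260 CPM in KO1_RES and at 80.3 and 107 CPM in KO1 (1.34, SE 0.207, adjusted p = 0.0384), and its call was lost in all 4 such fits and in the fit without the controls (1.35, adjusted p = 0.055, where 0.384% of all genes were called).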

How the data were processed

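RNA was extracted from PLC/PRF/5 cells with an RNeasy kit and sequenced from stranded mRNA libraries, per the labels' protocols. The deposited values are raw counts per gene, which the authors produced using STAR 2.6.0b and GRCh37, per the submitters' processing notes. The strand-specific counts were used, and rows that name no gene (23.24 to 31.45% of the reads per library) stayed out of library sizes and tests. Symbols came from a gene name table and GENCODE 29, which also gave chromosomes and exon lengths.

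Groups followed the titles. Genes were filtered with filterByExpr, scaled by TMM and tested with edgeR 4.0.16 (quasi-likelihood, Benjamini-Hochberg over all genes, called under 0.05) in R 4.3.3, with 3 groups, or with 5 groups where lines were compared. The standard error was derived from the F statistic. DESeq2 1.42.0 was an alternative. The tests were checked on simulated counts. These had the same spread for all genes and no split among the controls, so the check does not cover the split seen here. Libraries of the same line and number deviated together (correlations 0.778, 0.829, 0.849 and 0.767 about the group means, which include the line difference, and 0.464 in line 1 and 0.642 in line 2 about the means of each line and group), so they were treated as pairs in the blocked alternative. The named genes were the 9 genes, up to 4 called genes with the smallest adjusted p per list and comparison, the 5 genes nearest to RBP4 and to TTR among those with a mean of at least 2 CPM, HKDC1, ALB and AFP. The genes and lists were chosen with earlier results of these data known, and no test over a list was made. Some results of the pathway lists are not reported here.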

Additional observations from a re-analysis of the deposited data

Results flagged for a closer look

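RBP4 differed between the knockout lines: KO2 held 5.52 and 6.70 CPM and KO1 85.7 and 95.2 CPM, a log2 fold change of -3.88 in the edgeR test (adjusted p = 0.0475). LRAT moved in opposite directions on rescue in the 2 lines, at 1.58 and 1.48 times its KO level in line 2 and at 0.633 and 0.716 times in line 1. That difference was 1.15 on the log2 scale, and its own test did not reach the threshold (unadjusted p = 0.138, adjusted p = 1 in edgeR).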

How the results depend on the processing

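The fits against controls 1 and 2, against controls 3 and 4, and without the controls were chosen after seeing the data. Genes called in KO against control numbered 1206, and 2289 with DESeq2, 1883 by the genotype field, 72 with the 8 libraries whose labels agree, 3312 as the mean of both lines, 337 against controls 3 and 4, and 509 to 959 without 1 library. KO_RES against KO had 0, and 5 with DESeq2, 1 without a filter, 2 as the mean of both lines, 8 with line and number as a replicate block (461 in DESeq2), 3 with line as a block, and 0 to 0 without 1 library. KO_RES against control had 1050, and 2028 with DESeq2, 1874 by the genotype field, 64 with the 8 agreeing libraries, 533 with only these groups, 384 against controls 3 and 4, and 471 to 1138 without 1 library. KO1 against control had 3721 (1265 to 3580 without 1 library), and KO2 had 2062 (3385 without a filter, 3861 against controls 1 and 2, 530 to 2117 without 1 library). KO2 against KO1 had 2463 (854 to 1143). KO1_RES against KO1 had 40, with 201 in DESeq2, 548 without a filter, 76 without the controls and 1 to 11 without 1 library. KO2_RES against KO2 had 1, with 41 without a filter, 0 without the controls and 0 to 1 without 1 library. The difference of rescue effects had 0, with 32 in DESeq2, 192 without a filter and 0 to 1 without 1 library.

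Directions turned mostly where the effect was near 0. For rescue, LRAT (-0.10) was 0.00 on unstranded counts and with line and number as a replicate block in edgeR and DESeq2, 0.01 with line as a block, 0.02 as the mean of lines, 0.49 by the genotype field, 0.39 with the 8 agreeing libraries and -0.34 to 0.20 without 1 library. CRABP2 (0.08) was -0.43 by the genotype field, -0.27 with the 8 and -0.24 to 0.40 without 1 library, DHRS3 (-0.10) 0.21, 0.13 and -0.19 to 0.03, and CYP26A1 0.27 by the genotype field. Without 1 library rescue gave -0.18 to 0.06 for RDH10 and -0.21 to 0.25 for RARB. RBP4 in KO_RES against control was -0.16 by the genotype field, -0.81 against controls 1 and 2 and -0.66 to 0.54 without 1 library. RBP4 against controls 3 and 4 was 1.59 in KO and 2.5 in KO1, where leaving out 1 library gave -0.40 to 0.42, and its difference of rescue effects was -0.15 to 0.55. In KO2 against control, leaving out 1 library gave -0.68 to 1.44 for CRABP2 and -0.44 to 0.02 for RARB, and in KO2 against KO1 -1.47 to 0.64 for CRABP2, -0.13 to 0.21 for CYP26A1 and -0.28 to 0.36 for DHRS3. The causes were not tested, except that fits without a library have fewer samples. Depth limits TTR in line 1 after rescue, at or under 3 counts.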
